A study of Mus musculus with 12 samples.

Results

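The genes described here are 10 chaperones and stress factors of the endoplasmic reticulum (ER): Hspa5, Hsp90b1, Calr, Canx, Pdia4, Dnajb9, Xbp1, Atf4, Ddit3 and Herpud1. They were chosen by name, and their array probes were found through the RefSeq accession that the array gives for each probe. All 10 were measured, on 12 probes, among 15230 genes tested, and each was well above background on all 12 arrays. Dnajb9 and Atf4 each had 2 probes, of which the brighter was used.

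Secreted and membrane proteins fold in the ER with the help of chaperones, and an excess of unfolded protein there sets off the unfolded protein response. In that response 3 sensors, encoded by Ern1, Atf6 and Eif2ak3, act through the transcription factors XBP1, ATF6 and ATF4, which raise chaperones, disposal factors and, when stress lasts, the death-associated factor DDIT3. Podocytes, the epithelial cells that wrap the capillaries of the kidney glomerulus, make large amounts of membrane and matrix protein, and ER stress is a well known feature of podocyte injury.

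RNA was measured on 1-colour arrays from mice with an inducible Cre and floxed Foxc1 and Foxc2, 2 forkhead transcription factor genes. All 6 groups, controls included, carried these alleles, and the series title was followed because the number of the second floxed gene runs on from one label to the next. The promoter that drives the Cre is not given in the sources used here. The first 2 groups were isolated glomeruli, one from control mice given no agent and one from mice, 8 weeks old, that had received 1 intraperitoneal tamoxifen injection on each of 3 successive days and whose glomeruli were taken at day 7. The other 4 groups were primary podocyte cultures grown out from glomeruli of adult mice and kept for 4 or 7 days with mock treatment or with tamoxifen. Each group held 2 arrays. The glomerular labels name separate mice, but nothing says that the cultures were separate. P-values for cultures thus measure the spread between these samples, which may be technical. Those for glomeruli rest partly on that spread too, since 1 fit pooled the spread of all 6 groups.

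The promoters of 5 members are shown because they hold the sequence elements through which the unfolded protein response is known to act. Each is the 250 bases before the gene's start in RefSeq's mouse assembly GRCm38.p6, read 5′ to 3′ on the gene's strand, with matches in capitals. In the first 4 the capitals mark CCAAT, 9 bases of any kind and CCACG, the ER stress response element, on either strand. In Herpud1 they mark ATTGG, 1 base and CCACG, the second ER stress response element, and also TGATG, 1 base and AA on the opposite strand, the amino acid response element bound by ATF4.
Hspa5 (chr2:34771840-34772089, plus strand): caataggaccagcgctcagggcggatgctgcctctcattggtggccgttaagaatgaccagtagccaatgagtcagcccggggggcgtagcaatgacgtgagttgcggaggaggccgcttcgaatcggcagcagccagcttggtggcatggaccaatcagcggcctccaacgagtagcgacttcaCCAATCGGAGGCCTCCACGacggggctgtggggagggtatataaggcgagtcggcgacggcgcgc
Hsp90b1 (chr10:86705445-86705694, minus strand): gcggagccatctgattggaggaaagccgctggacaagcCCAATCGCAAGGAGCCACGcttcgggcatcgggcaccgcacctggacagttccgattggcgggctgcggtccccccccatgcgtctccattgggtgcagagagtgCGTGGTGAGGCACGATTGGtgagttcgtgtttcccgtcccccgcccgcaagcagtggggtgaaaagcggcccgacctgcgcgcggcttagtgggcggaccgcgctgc
Calr (chr8:84846932-84847181, minus strand): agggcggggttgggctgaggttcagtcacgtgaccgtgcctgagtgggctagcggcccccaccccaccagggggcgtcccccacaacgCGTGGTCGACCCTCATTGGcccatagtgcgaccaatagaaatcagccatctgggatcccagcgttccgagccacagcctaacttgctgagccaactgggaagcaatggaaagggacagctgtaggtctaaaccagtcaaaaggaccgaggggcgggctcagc
Canx (chr11:50325674-50325923, minus strand): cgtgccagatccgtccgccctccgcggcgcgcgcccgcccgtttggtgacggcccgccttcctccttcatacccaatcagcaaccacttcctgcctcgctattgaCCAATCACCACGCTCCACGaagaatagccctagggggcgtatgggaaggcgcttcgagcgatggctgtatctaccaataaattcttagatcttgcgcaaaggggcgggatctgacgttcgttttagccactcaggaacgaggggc
Herpud1 (chr8:94386179-94386428, plus strand): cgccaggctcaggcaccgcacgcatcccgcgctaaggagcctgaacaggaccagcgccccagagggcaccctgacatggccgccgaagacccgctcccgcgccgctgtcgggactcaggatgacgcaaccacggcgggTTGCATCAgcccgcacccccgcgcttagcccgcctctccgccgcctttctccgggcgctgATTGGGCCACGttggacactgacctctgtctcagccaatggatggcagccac

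All 10 members had a promoter in the RefSeq table, and 4 of them held the ER stress response element, against 0.113% of 32851 promoters of the same length. In Hspa5 the match lay 65 to 47 bases before the start, and in Canx 145 to 127 bases before it. Hsp90b1 held 2 matches, at 212 to 194 bases on the gene's strand and at 107 to 89 bases on the opposite strand. The match in Calr, 162 to 144 bases before the start, was also on the opposite strand. These are the chaperones HSPA5 (BiP), HSP90B1 (GRP94), calreticulin and calnexin. The second element, found in 0.0304% of promoters, lay 52 to 42 bases before the start of Herpud1, and the amino acid response element, found in 3.45%, lay 112 to 105 bases before it. The core of the unfolded protein response element, TGACG followed by TGG (0.563% of promoters), was in none of the members. CCACG alone, which is also part of both ER stress response elements, was in 7 of the 10 and in 28.3% of all promoters. Pdia4, Xbp1 and Ddit3 held no match to any of these motifs on either strand of this window. A match is a description of the letters, not a shown binding site.

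**Figure D1:**
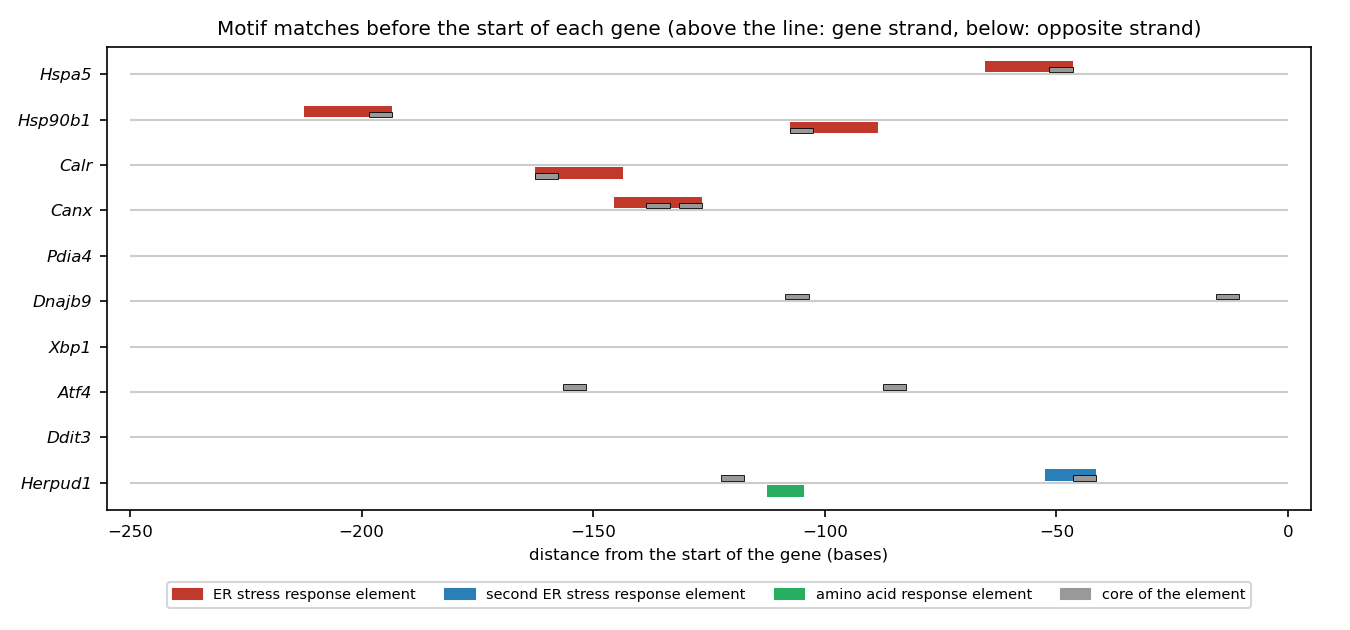
Motif matches in the 250 bases before the start of each of the 10 members, by distance from the start in bases, with matches on the gene's strand above each line and those on the opposite strand below it. The ER stress response element appears in Hspa5, Hsp90b1 (2 matches), Calr and Canx, the second element and the amino acid response element in Herpud1, and the core of the ER stress response elements in 7 members.

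Array values are log2 signal relative to each array's own 75th percentile, so 0 is the 75th percentile and 1 unit is a 2-fold difference. The 75th percentile was 505.2 to 759.9 units, 57.9% to 63.4% of spots were well above background, and the 2 arrays of a group correlated at 0.9831 to 0.9898 across genes. Foxc2 lay at 2.10 and 2.24 in control glomeruli and at -1.12 and -0.19 in tamoxifen-treated glomeruli, and at 1.38 to 1.76 in mock cultures, and its probe was not well above background on any of the 4 arrays of treated cultures. Foxc1 lay at 2.80 and 2.92 against 0.92 and 1.09 in glomeruli, and in treated cultures its probe was well above background on 2 of 4 arrays. Foxc2 was called in glomeruli and on both culture days (adjusted p = 0.0368, 0.00195 and 0.000708), and Foxc1 in none of these comparisons (adjusted p = 0.627, 0.141 and 0.0566). Whether these probes lie in the deleted parts is not given in the sources used here. The glomerular, day 4 and day 7 arrays lay on 3 slides, 1 for each, so every tamoxifen comparison was made within a slide, and slide cannot be told apart from tissue or day in the other comparisons. In cultures all 12 podocyte markers had lower means than in control glomeruli and 11 were called, while Wt1 had group means of 5.04 and 5.05 in mock cultures against 5.71 in control glomeruli. Of 9 mesangial and mural markers 3 were called higher in mock cultures and 5 lower. They ran from the smooth muscle gene Cnn1 at 8.96 to Itga8 at -3.91, with a median of -0.82. All 11 tubule markers were called lower. Umod, Slc12a1, Slc12a3 and Kap were not well above background on any culture array. Lrp2, Slc22a6, Aqp2 and Cdh16 were well above it on all 8, and Slc34a1, Slc5a2 and Miox on 6, 5 and 3.

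The glomerular comparison sets mice injected with tamoxifen against mice given no agent, so tamoxifen itself and its effect on the floxed genes cannot be told apart. None of the 10 members was called in tamoxifen-treated glomeruli. A gene was called at an adjusted p under 0.05 in limma's fit over all genes, and 2.6% of all genes were (396 genes, of which 266 were higher; with each array scaled by its median, 281 of 361). By their means 9 of 10 were below the controls (8 with median scaling or quantile normalization, which turned Atf4), against 57% of all genes. Both treated arrays lay below both control arrays for 6 members, against 27.8% of genes. An unadjusted p under 0.05 was reached by 2 members, against 18.3% of genes. The median difference was -0.21 for the members and -0.05 for all genes.

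Calr, the calcium-binding lectin chaperone calreticulin, showed the largest glomerular difference. It lay at 3.83 and 3.75 in the 2 control arrays and at 3.13 and 2.94 in the 2 treated arrays. Both treated arrays were below every other array of the study, and the difference was -0.76 (SE 0.21), or 0.592 of the control level, with an unadjusted p of 0.00671 and an adjusted p of 0.101. Across 22 alternative analyses it stayed between -0.85 and -0.66 and was never called. Calnexin, its membrane-bound partner in the folding of glycoproteins, lay at 4.25 and 4.53 in control and at 4.18 and 4.33 in treated glomeruli. These ranges overlap, and the Canx difference was -0.14 (SE 0.13, adjusted p = 0.646).

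Hspa5 encodes BiP, the main chaperone of the ER, which also holds the stress sensors inactive. It lay at 5.08 and 5.17 in control glomeruli and at 4.88 and 4.59 in treated glomeruli. The groups did not overlap, and the difference of -0.39 (SE 0.17) had an adjusted p of 0.28. Hsp90b1, the ER member of the HSP90 family, lay at 4.86 and 4.92 in controls and at 4.88 and 4.57 in treated glomeruli. One treated array was thus within the range of the controls and one below it, and the difference was -0.17 (SE 0.19, adjusted p = 0.705). Pdia4, a protein disulfide isomerase, lay at 1.18 and 1.39 against 1.02 and 0.79. Its groups did not overlap, and the difference was -0.38 (SE 0.17, adjusted p = 0.277). Dnajb9, a co-chaperone of BiP (ERdj4), had close replicates, with 1.41 and 1.44 in controls and 1.19 and 1.18 in treated glomeruli. Its difference of -0.25 (SE 0.09) was the only one besides that of Calr with an unadjusted p under 0.05 (0.0315, adjusted p = 0.22). The second, dimmer Dnajb9 probe differed by -0.74 (SE 0.33), with controls far apart at -2.15 and -1.03 and treated arrays at -2.35 and -2.31.

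The transcription factors differed less from their controls or varied more. Xbp1, the factor activated by the sensor IRE1, lay at 4.56 and 4.68 in controls and at 4.35 and 4.53 in treated glomeruli. The treated arrays were the lower ones, by -0.18 on average (SE 0.13, adjusted p = 0.519). The probe reports the amount of Xbp1 RNA and not its splicing, through which XBP1 is activated. Atf4, which is controlled mainly at translation, lay at 4.89 and 5.28 against 4.99 and 5.17, with treated values inside the control range and a difference of -0.01 (SE 0.28, 95% interval -0.65 to 0.63). Ddit3 (CHOP) lay at 0.25 and -0.01 in controls and at -0.08 and -0.43 in treated glomeruli. Its arrays did not overlap, but its spread was wide, and the difference of -0.38 (SE 0.37) had an adjusted p of 0.648. Herpud1, a membrane protein of the machinery that removes misfolded proteins from the ER, lay at 3.26 and 3.07 in controls and at 3.87 and 2.79 in treated glomeruli. The 2 treated arrays fell on opposite sides of the controls. The mean difference was 0.16 (SE 0.31, adjusted p = 0.835), and it was -0.38 without replicate 1 and 0.70 without replicate 2 of the treated glomeruli.

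**Figure D2:**
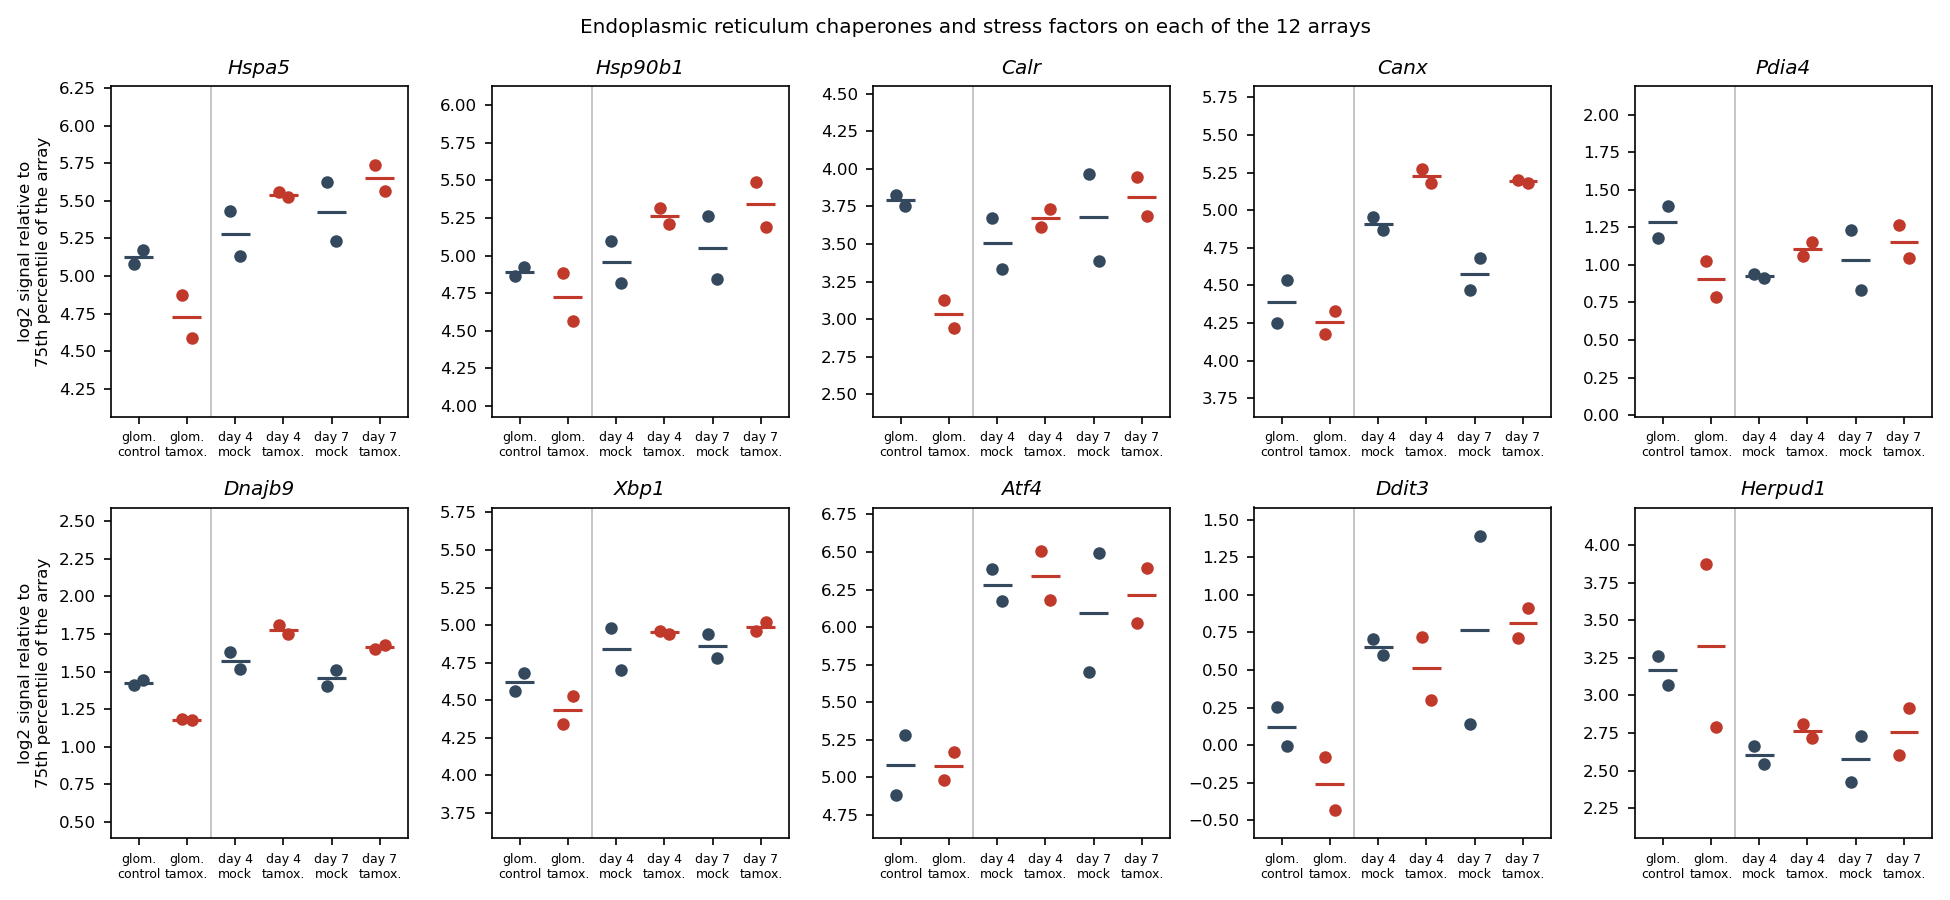
Log2 signal relative to the array's 75th percentile for each member (vertical axis, every panel spanning 2.2 log2 units) in the 6 groups, with 1 point per array, a line at the group mean, controls and mock cultures in dark blue and tamoxifen in red. Calr lies at 2.94 and 3.13 in treated glomeruli, below all other arrays, and Atf4 lies at 5.70 to 6.50 in cultures against 4.89 to 5.28 in glomeruli.

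Cell type markers moved in the same glomeruli. All 12 podocyte markers had lower means in treated glomeruli (11 with median scaling; 1 called, Synpo), and their summed signal, in multiples of the 75th percentile, was 464.4 to 609.5 in controls and 306.3 to 431.3 in treated mice. Tubule markers had higher means for 10 of 11 (2 called), with sums of 120.7 to 132 against 228.9 to 317.3. Sums were 288.5 to 339.4 against 239.6 to 241 for 10 endothelial markers (9 lower), 41.61 to 80.32 against 68.32 to 74.84 for 9 mesangial and mural markers (all 9 higher, 8 with normexp background correction), and 29.78 to 65.33 against 0.746 to 5.92 for 4 red blood cell markers (all 4 lower). The parietal epithelial list had 4 of 5 higher means, although its sum was 25.82 to 27.78 in controls against 22.12 to 22.52 in treated mice. The fibroblast list had 4 of 5 higher means (sums 1.36 to 3.59 against 2.13 to 2.39) and the immune list 10 of 11 lower means (4.62 to 6.33 against 2.08 to 3.02). All podocyte, endothelial and tubule markers were well above background on the 4 glomerular arrays. The part of these shifts in the members' values was not tested, and in such bulk samples fewer cells of a type and less RNA per cell cannot be told apart.

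Other genes of the pathway were read from 5 lists holding 60 genes, of which 59 were tested (Slc7a11 was not). In treated glomeruli 1 rose and 1 fell, where 2.6% of all genes were called. Some alternatives with all arrays called further genes. Psat1 (1.40, adjusted p = 0.0535 in the main analysis) was called higher with quantile normalization, with probes well above background on all arrays and with trended, robust moderation. Txndc5 (-0.62, adjusted p = 0.0598 in the main analysis) was called lower with that moderation and with a replicate block. The block also called Calu lower and Vldlr higher. Ero1b, an oxidase that makes disulfide bonds possible in the ER, lay at -1.43 and -1.51 in controls and at -1.95 and -2.02 in treated glomeruli. Both treated arrays were lower, and the difference of -0.51 (SE 0.10) had an adjusted p of 0.0482. Shmt2, a mitochondrial serine enzyme and a target of ATF4, lay at 0.08 and 0.11 in controls and at 1.02 and 0.79 in treated glomeruli. Its rise of 0.81 (SE 0.16) had an adjusted p of 0.0495. Both calls were near the threshold and were lost without any 1 of the 12 arrays (adjusted p 0.065 to 0.158 for Ero1b and 0.0637 to 0.226 for Shmt2), as well as in 5 of the 10 other alternatives for Ero1b and 7 of them for Shmt2.

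Among 16 other chaperones and folding enzymes 15 had lower means in treated glomeruli (13 with median scaling, 14 with quantile normalization or normexp), with a median of -0.27 and 1 call, Ero1b. In the disposal list 7 of 11 were lower (median -0.15, 0 called), and in the translocation list, the channel through which proteins enter the ER, 6 of 9 (median -0.01, 0 called), where median scaling turned the balance to 3 of 9 and the median to 0.04. Of 8 sensors and their partners 7 were lower (median -0.15, 0 called). Ern1, which encodes the sensor IRE1, differed by -0.44 (SE 0.13, adjusted p = 0.121), Atf6 by -0.41 (SE 0.13, adjusted p = 0.147) and Eif2ak3, which encodes PERK, by -0.13 (SE 0.11, adjusted p = 0.591). By contrast, 11 of 15 targets of the Atf4 branch had higher means (12 with median scaling, quantile normalization or normexp), with a median of 0.53 and 1 call, Shmt2. The highest was Ddit4 at 1.84 (SE 0.59, adjusted p = 0.145). Those with lower means were Chac1 (-0.75, SE 0.67), Trib3 (-0.56, SE 0.53), Ppp1r15a (-0.31, SE 0.24) and Atf3 (-0.01, SE 0.33), so the list did not move as a whole. An unadjusted p under 0.05 was reached by 2 sensors, 4 folding, 2 disposal, 6 Atf4-branch and 0 translocation genes, against 18.3% of all genes. Lower means were found for 57% of all genes. The lists were chosen with earlier results of these data known, and none of these counts is a test of a list.

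In the cultures most members had means above mock. All culture groups carried the floxed alleles, so here too tamoxifen itself and its effect on these genes cannot be told apart. At day 4 none of the 10 was called, against 0.21% of all genes (32 genes, of which 14 were higher; with median scaling, 26 of 43). Means were above mock for 9 of 10 members, against 53.2% of genes, but with normexp background correction, which moved the median of all genes from 0.02 to 0.19, only Pdia4 was above it, and quantile normalization turned Atf4. The 2 tamoxifen arrays lay above both mock arrays for 6 members, against 29% of genes. Canx alone had an unadjusted p under 0.05, which 10.9% of genes had. The median difference was 0.17 for the members and 0.02 for all genes.

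At day 7 again none was called, against 0.972% of all genes (148 genes, of which 69 were higher; with median scaling, 113 of 184). All 10 means were above mock, against 50.2% of genes, and so they were with median scaling, quantile normalization and normexp. Leaving out 1 array turned the sign of Atf4, Calr, Ddit3 or Pdia4. Canx, Dnajb9 and Xbp1 had both tamoxifen arrays above both mock arrays, or 3 of 10 members against 22.1% of genes. Canx was again the single member with an unadjusted p under 0.05, which 12.1% of genes had. The median difference was 0.16 against 0.00 for all genes.

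Canx showed the largest culture difference. At day 4 it lay at 4.95 and 4.87 with mock treatment and at 5.28 and 5.18 with tamoxifen. At day 7 the mock arrays were at 4.47 and 4.68 and the tamoxifen arrays at 5.20 and 5.18. On both days the tamoxifen arrays were the higher ones, and at day 7 the mock arrays were also lower than at day 4. The difference was 0.32 (SE 0.13, unadjusted p = 0.0433, adjusted p = 0.429) at day 4 and 0.62 (SE 0.13, 1.53-fold, unadjusted p = 0.00169, adjusted p = 0.0914) at day 7. Over the alternatives the day 7 value ranged from 0.51 to 0.72 with adjusted p-values of 0.0502 to 0.368, and it was never called. The increase in its response from day 4 to day 7 was 0.30 (SE 0.19, 95% interval -0.13 to 0.73), within the error.

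Hspa5 lay at 5.43 and 5.13 in mock and at 5.56 and 5.52 in tamoxifen cultures at day 4, and at 5.62 and 5.24 against 5.74 and 5.57 at day 7. The groups did not overlap at day 4 and overlapped at day 7. Its differences were 0.26 (SE 0.17, adjusted p = 0.681) and 0.22 (SE 0.17, adjusted p = 0.69). Hsp90b1 followed the same order, with 5.10 and 4.82 against 5.31 and 5.21 at day 4, and 5.26 and 4.84 against 5.49 and 5.19 at day 7. It differed by 0.30 (SE 0.19, adjusted p = 0.65) and 0.29 (SE 0.19, adjusted p = 0.625). In both genes the 2 day 7 mock arrays lay farther apart than the group means did.

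Calr lay at 3.68 and 3.34 in mock and 3.62 and 3.74 in tamoxifen cultures at day 4, and at 3.96 and 3.39 against 3.94 and 3.69 at day 7. On both days the groups overlapped, with differences of 0.17 (SE 0.21, adjusted p = 0.855) and 0.14 (SE 0.21, adjusted p = 0.877). Pdia4 lay at 0.94 and 0.92 against 1.06 and 1.15 at day 4, where the groups did not overlap, and at 1.23 and 0.83 against 1.26 and 1.04 at day 7, where they did. Its differences were 0.18 (adjusted p = 0.799) and 0.12 (adjusted p = 0.861), each with an SE of 0.17. Dnajb9 lay at 1.63 and 1.52 against 1.81 and 1.75 at day 4, and at 1.40 and 1.51 against 1.65 and 1.67 at day 7. Tamoxifen arrays were above mock arrays on both days, and the difference was 0.21 each time (SE 0.09), with adjusted p-values of 0.484 at day 4 and 0.44 at day 7.

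Xbp1 lay at 4.98 and 4.70 against 4.96 and 4.94 at day 4, and at 4.94 and 4.78 against 4.96 and 5.02 at day 7. Its differences of 0.11 and 0.13 (SE 0.13) had adjusted p-values of 0.847 and 0.784. Atf4 lay at 6.39 and 6.17 against 6.50 and 6.18 at day 4, and at 5.70 and 6.49 against 6.03 and 6.39 at day 7. Its groups overlapped on both days, and the differences of 0.06 and 0.12 (SE 0.28) were well within the spread. Ddit3 lay at 0.71 and 0.60 against 0.72 and 0.30 at day 4, and at 0.14 and 1.39 against 0.72 and 0.91 at day 7. The 2 day 7 mock arrays enclosed both tamoxifen arrays, and replicate 1 of that group was low for Ddit3 and for Atf4 alike. Ddit3 differed by -0.14 and 0.05 (SE 0.37). Herpud1 lay at 2.66 and 2.54 against 2.81 and 2.72 at day 4, and at 2.43 and 2.73 against 2.60 and 2.91 at day 7. It differed by 0.16 and 0.18 (SE 0.31), with no overlap at day 4.

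**Figure D3:**
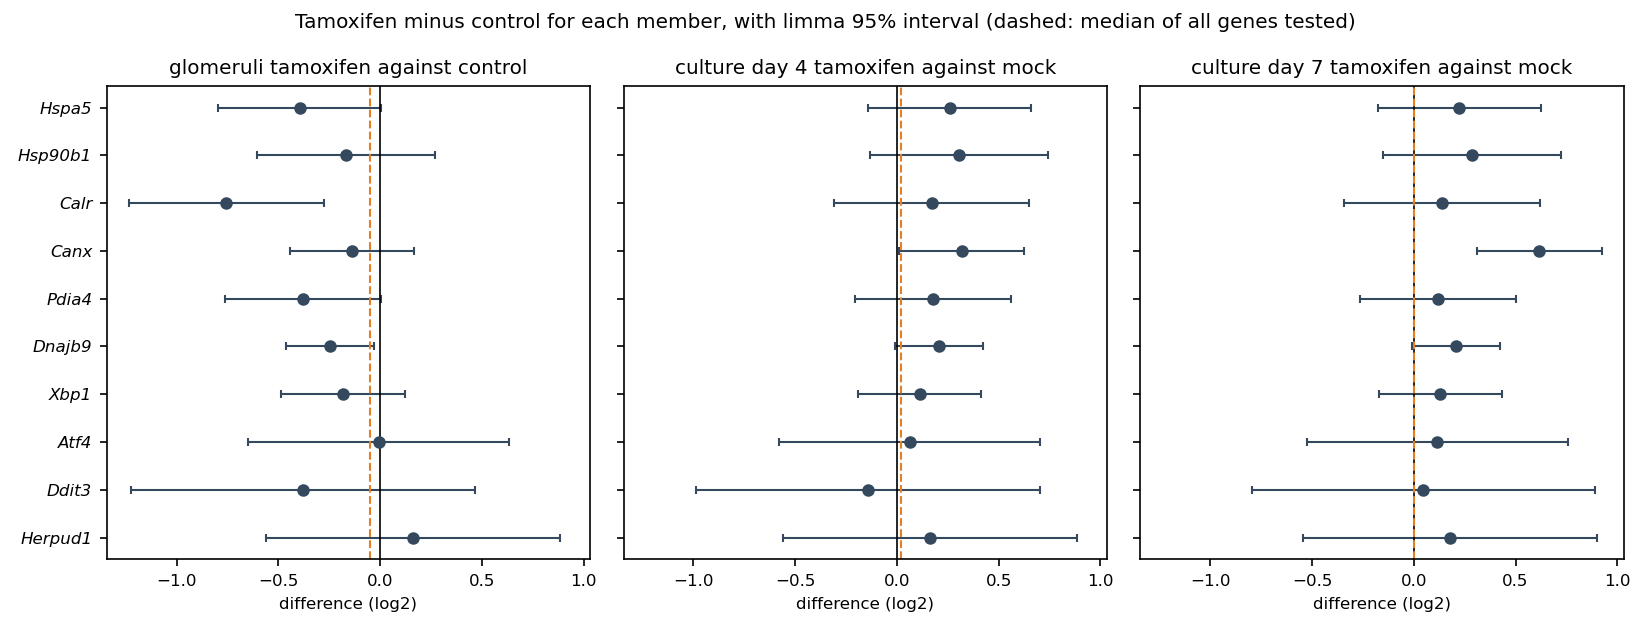
Tamoxifen minus control difference (log2) of each member in glomeruli and in cultures at day 4 and day 7, with limma's 95% interval, a solid line at 0 and a dashed line at the median of all genes tested. Calr at -0.76 in glomeruli and Canx at 0.62 at day 7 lie farthest from 0, no member was called, and at day 4 normexp background correction put 9 of 10 members below 0.

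Marker sums in the cultures were 69.86 to 71.66 in mock and 72.57 to 73.42 in tamoxifen cultures at day 4 for podocyte genes, and 71.2 to 72.29 against 70.79 to 80.22 at day 7. Mesangial and mural sums were 474.6 to 503.9 against 623.2 to 675.6 at day 4, and 464.2 to 554.1 against 603.2 to 630 at day 7. Means were higher for 6 of 9 markers at day 4 and 5 of 9 at day 7 (4 of 9 with quantile normalization). Acta2, Tagln and Cnn1, with culture group means of 5.33 to 8.17, weigh most in these sums. Pdgfrb, Gata3 and Itga8 had lower means with tamoxifen on both days, and Ren1 at day 7. Pdgfrb lay at 3.38 in mock against 2.49 with tamoxifen at day 4, and at 3.18 against 2.33 at day 7. The part of these marker differences in the members' values was not tested. None of the 59 pathway genes was called at day 4 or at day 7. An unadjusted p under 0.05 was reached by 1 and 2 of them, against 10.9% and 12.1% of all genes. Among the other alternatives with all arrays, normexp called 5 of the 59 at day 4, all higher (Mbtps2, Hyou1, Ero1b, Edem2 and Derl3). It called 5071 of all 15230 genes on that day. A replicate block called Derl3 and Vldlr at day 7, both higher (adjusted p = 0.0353 and 0.0337), and 432 of all genes. At day 4 the highest was Aldh1l2, a mitochondrial folate enzyme, at 1.25 (SE 0.68, adjusted p = 0.584), and 0.42 to 2.07 without 1 array. At day 7 it was Derl3, a disposal factor, at 1.54 (SE 0.42, adjusted p = 0.167). Atf3, a stress-induced transcription factor, was the lowest on both days, at -0.62 (0.51 with normexp) and -0.77 (SE 0.33 each), the latter -1.23 without replicate 1 and -0.31 without replicate 2 of the day 7 mock cultures. Of 16 folding genes 14 had higher means on both days (medians 0.12 and 0.15), but 4 at day 4 with normexp (median -0.10). Of 15 Atf4-branch targets 14 had higher means on both days (medians 0.44 and 0.31), and 10 at day 4 with normexp. Sensors were higher for 5 of 8 on both days (medians 0.08 and 0.05), disposal genes for 9 and 7 of 11 (0.04 and 0.09), and translocation genes for 7 of 9 on both (0.10 each), and normexp turned the day 4 medians of the last 2 lists to -0.06 and -0.18. Higher means were found for 53.2% of all genes at day 4 and 50.2% at day 7. The 3 sensors Ern1, Eif2ak3 and Atf6 all stayed within 0.09 of mock.

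The 2 culture responses were set against each other and against the glomerular response. Between day 7 and day 4 no member's response was called and none had an unadjusted p under 0.05. Among all genes 0% were called and 0.9% had an unadjusted p under 0.05. The members' median difference was 0.01.

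The glomerular response minus the mean culture response was below 0 for all 10 members, against 56% of all genes (9 of 10 with median scaling or normexp, which turned Herpud1, and 8 with quantile normalization, which also turned Atf4). None was called, against 1.09% of all genes (166 genes). An unadjusted p under 0.05 was reached by 5 members, against 16.9% of genes. They were Dnajb9 at -0.45 (SE 0.12, adjusted p = 0.103), Canx at -0.61 (SE 0.16, adjusted p = 0.118), Calr at -0.91 (SE 0.25, adjusted p = 0.127), Hspa5 at -0.64 (SE 0.21, adjusted p = 0.184) and Pdia4 at -0.53 (SE 0.20, adjusted p = 0.24). All 5 are chaperones or folding enzymes, and so is Hsp90b1, which did not reach that threshold (-0.46, SE 0.23, adjusted p = 0.37). Over the alternatives the lowest adjusted p of any of them was 0.0669, for Calr. The 3 transcription factors differed by -0.30 for Xbp1 (SE 0.16), -0.10 for Atf4 (SE 0.34) and -0.33 for Ddit3 (SE 0.45). The median was -0.46 for the members and -0.05 for all genes. No single member's response was shown to differ between glomeruli and cultures.

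Time in culture was compared in mock cultures. None of the members was called between day 7 and day 4, against 0.0328% of all genes (5 genes). Canx differed by -0.34 at day 7 (SE 0.13, unadjusted p = 0.0355, adjusted p = 0.664), the 1 member with an unadjusted p under 0.05, against 6.49% of genes. Dnajb9 differed by -0.12 (SE 0.09). In these 2 genes both day 7 arrays lay below both day 4 arrays, against 11.3% of genes. The other 8 members overlapped. No other gene of the pathway was called, the highest being Sec61a1, a subunit of the translocation channel, at 0.33 (SE 0.19; 0.13 to 0.53 without 1 array) and the lowest Derl3 at -0.51 (SE 0.42; -0.95 to -0.072 without 1 array).

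Mock cultures were compared with control glomeruli to place the members in the 2 kinds of sample. Here 2 of 10 members were called, against 63.7% of all genes (9704 genes, of which 5758 were higher; with median scaling, 7193 of 10224). The same 2 were the members with an unadjusted p under 0.05, which 67.4% of genes had. Means were higher in cultures for 7 members (8 with median scaling and 3 with quantile normalization), against 58.1% of genes. The members' median was 0.17 and that of all genes 0.18; median scaling moved both to 0.41, and quantile normalization gave -0.11 and 0.16.

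Atf4 was the member that differed most. It lay at 4.89 and 5.28 in control glomeruli and at 6.39, 6.17, 5.70 and 6.49 in the 4 mock cultures. Every mock culture was above both control glomeruli, and Atf4 was higher by 1.10 (SE 0.24, 2.15-fold, adjusted p = 0.00428). It was called in the main analysis and all 22 alternatives, at 0.77 to 1.34 with adjusted p-values of 0.0011 to 0.0427. Its second probe gave 0.61 (SE 0.29). Canx was higher by 0.35 (SE 0.11, adjusted p = 0.0275), although its arrays overlapped. That call was lost in 6 of the 22 alternatives, among them quantile normalization (0.06, adjusted p = 0.675) and the analyses without replicate 1 of the control glomeruli (0.21, adjusted p = 0.202), replicate 1 of the day 4 mock cultures (adjusted p = 0.0684) or replicate 2 of the day 7 mock cultures (adjusted p = 0.0689).

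The remaining 8 were not called. Ddit3 differed by 0.59 (SE 0.32, adjusted p = 0.136), and by 0.90 with an adjusted p of 0.00467 without replicate 1 of the day 7 mock cultures. Herpud1 lay below both control glomeruli in all 4 mock cultures, by -0.58 (SE 0.27, adjusted p = 0.0951), and was called in 5 alternatives, with an adjusted p of 0.0099 without either array of the tamoxifen-treated glomeruli. Pdia4 differed by -0.30 (SE 0.14, adjusted p = 0.0973) and was called without replicate 1 of the day 7 mock cultures (-0.40, adjusted p = 0.0326) and with quantile normalization. Hspa5 differed by 0.23 (adjusted p = 0.211), Xbp1 by 0.23 (adjusted p = 0.11) and Hsp90b1 by 0.11 (adjusted p = 0.566), and quantile normalization turned all 3 below 0. Median scaling called Hspa5 (0.47) and Xbp1 (0.47), and Dnajb9 too (0.32). Calr differed by -0.20 (adjusted p = 0.359; 0.04 with median scaling). For Dnajb9 the 2 probes disagreed in sign, at 0.09 (SE 0.09) and -0.44 (SE 0.29). The second probe lay at -2.15 and -1.03 in control glomeruli and at -2.21 to -1.75 in mock cultures.

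Around the members, the Atf4-branch targets stood highest in the cultures. Of 15 tested 11 rose and none fell, with a median of 1.99, where 63.7% of all genes were called. Mthfd2, a mitochondrial folate enzyme, was at -5.47 and -4.72 in control glomeruli and between -0.97 and 0.23 in mock cultures. Phgdh, the first enzyme of serine synthesis, was at -0.96 and -0.19 against 3.00 to 3.95, and Asns, asparagine synthetase, at 0.11 and 0.76 against 3.64 to 4.56. In all 3 genes the groups lay far apart. The rises were 4.75 (adjusted p = 2.8e-05), 4.07 (adjusted p = 1.2e-05) and 3.62 (adjusted p = 0.00018). Aldh1l2 rose by 3.97 (adjusted p = 0.000592), with 1 of 2 control glomeruli well above background. The control arrays lay at -6.06 and -6.95, where their lowest signals well above background were -6.12 and -5.81. The size of this rise is thus uncertain, and over the alternatives it was 1.55 to 4.41.

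The other lists were mixed. Among sensors and partners 4 of 8 rose and 2 fell (median 0.28; 5 and 0 with median scaling), among other folding genes 7 of 16 rose and 2 fell (median 0.41; 11 and 1 with median scaling), and among disposal genes 5 of 11 rose and 3 fell (median 0.05; 7 and 2 with median scaling, 2 and 1 with normexp). Translocation genes rose for 7 of 9 and fell for none (median 0.50; 5 rose with quantile normalization and 9 with median scaling). The largest falls were in Ero1b at -1.20 (adjusted p = 1.5e-05), Erlec1 at -1.06 (adjusted p = 0.000262), Edem2 at -0.57 (adjusted p = 0.00698) and Eif2ak3 at -0.39 (adjusted p = 0.00636). Erlec1 and Edem2 act on glycoproteins bound for disposal. The Edem2 call was lost with normexp (adjusted p = 0.607) and the Eif2ak3 call with median scaling (adjusted p = 0.166). Slide cannot be told apart from tissue here, and the part of the marker differences given above was not tested.

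**Figure D4:**
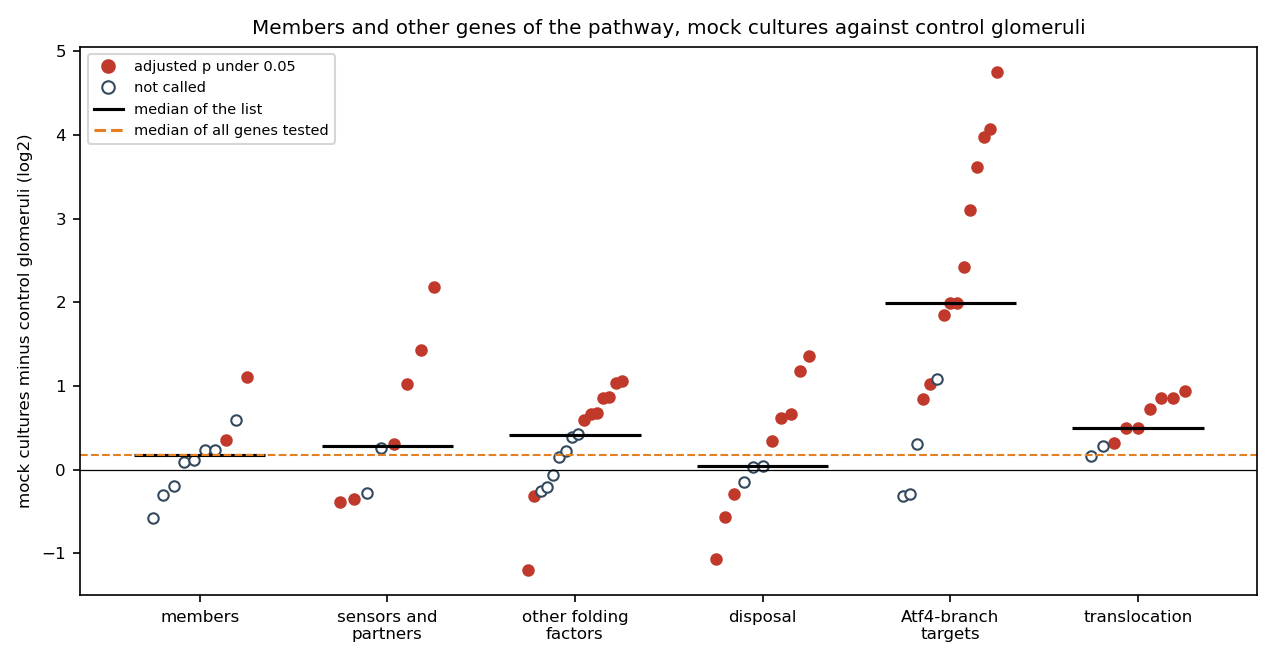
Mock cultures minus control glomeruli (log2, vertical axis) for the 10 members and the 59 tested genes of the 5 pathway lists, 1 point per gene, filled where called, with a line at each list's median and a dashed line at the median of all genes, 0.18. The members have a median of 0.17 and 2 calls, and the Atf4-branch targets a median of 1.99 and 11 calls; median scaling moved the median of all genes to 0.41.

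Across the 12 arrays the members fell into sets that moved together once the mean of the 4 glomerular and of the 8 culture arrays had been subtracted from each gene. These correlations are descriptions over arrays that share groups, slides and scaling. Hspa5 correlated with Hsp90b1 at 0.92, with Pdia4 at 0.92, with Calr at 0.91 and with Xbp1 at 0.70. Canx was more like Dnajb9 (0.84) than like Hspa5 (0.34). Atf4 and Ddit3 correlated at 0.53, and with Hspa5 at -0.28 and -0.03. Herpud1 reached at most 0.38, with Ddit3.

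Of 15203 genes compared over the 12 arrays, those most like Hspa5 were Fam174b (Pearson r 0.97), Procr (0.96), Creld2 (0.94), Sdf2l1 (0.93) and Eif2ak3 (0.93). Those most like Ddit3 were Pcf11 (0.93), Ccdc137 (0.92), Sugp2 (0.90), Sf3a1 (0.86) and Atf5 (0.84). Pcf11 was dim, with group means of -5.86 to -5.26, where the lowest signal well above background was -6.12 to -5.48 across arrays. Procr, for one, had group means of 1.46 in control and 0.49 in treated glomeruli, and of -1.80 with mock treatment and -1.31 with tamoxifen at day 4.

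**Figure D5:**
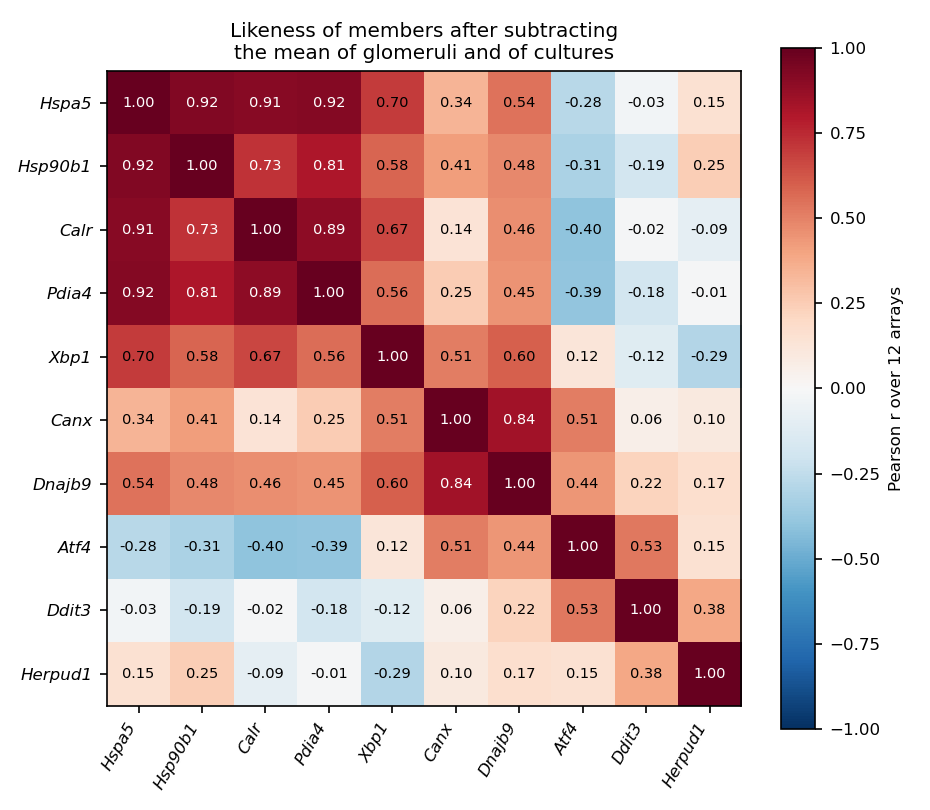
Pearson correlation between members over 12 arrays after the mean of the glomerular arrays and that of the culture arrays were subtracted, coloured from -1 (blue) to 1 (red). Hspa5, Hsp90b1, Calr and Pdia4 form a block of 0.73 to 0.92, and Atf4 lies at -0.28 to -0.40 with them.

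The ER stress response element printed above for Hspa5, Hsp90b1, Calr and Canx was in the promoters of 35 genes by symbol, of which 19 were tested, the 4 members included. In treated glomeruli 15 of the 19 had lower means (14 with median scaling, quantile normalization or normexp), against 57% of all genes. The median was -0.24, against -0.05 for all genes. In tamoxifen cultures 14 had higher means at day 4 (median 0.16, and 9 with normexp), against 53.2% of all genes. At day 7 there were 13 (median 0.13), against 50.2% of all genes. In mock cultures 13 of 19 were lower than in control glomeruli (median -0.20), where 58.1% of all genes were higher. With median scaling 7 of 19 were lower (median 0.04). These counts describe a list that shares genes with the members and with the pathway lists above, and no test was made of it.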

How the data were processed

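Each of 12 total RNA samples, Cy3-labelled, was put on 1 Agilent array. Per the file headers, the deposited intensity of each spot is a linear, background-subtracted processed signal, and the submitters' processing notes name Agilent Feature Extraction 11.5.1.1. A value table deposited by the authors is in log2, without a statement of how it was scaled, centred or directed. Set against each array, its columns matched the log2 processed signal relative to the 75th percentile (r = 1), shifted by 0.094 to 0.12, with genes not centred, and their medians were -4.14 to -3.81. It served as an alternative.

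The log2 of the processed signal minus each array's 75th percentile was used, without control spots and the 83 to 134 outlier spots per array (0 saturated). Spots of a probe were averaged. Of 39429 probes 26581 had 1 symbol, 0 several and 12848 none, through accessions matched without versions to RefSeq's GRCm38.p6 table (26581 of 28115). The filter kept 26421 probes that exceeded background clearly on 2 or more of 12 arrays, with the brightest probe for each gene. Tests used limma 3.58.1 (R 4.3.3), in 1 fit of 6 group means (6 residual and 1.87 prior degrees of freedom), with Benjamini-Hochberg adjustment over 15230 genes. SE and intervals are limma's. An exact permutation test of 2 against 2 arrays cannot go below p = 0.333. The script was tested on simulated data. Precision is limited by how few arrays there are.

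The members, pathway lists, marker lists and tests were chosen with earlier results of these data known. The text names all members, every other pathway gene called in a tamoxifen comparison, up to 4 called each way in the others, and otherwise the highest and lowest. The sensors Ern1, Atf6 and Eif2ak3 were added by role. The marker genes, Procr, pathway genes called only under an alternative and the uncalled Atf4-branch targets named for treated glomeruli were added after their values were seen. Alternatives were the background correction (normexp with offset 50, on the median signal), scaling, filters, probe choice, value table, moderation, arrays fitted, replicate block and leaving out each array.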

Additional observations from a re-analysis of the deposited data

How the results depend on the processing

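In each comparison that involves tamoxifen, and between days, 0 members were called under every alternative run, including without each array. Of 938 results for single genes under the other alternatives, 876 kept their direction and side of the threshold, 37 reversed, 17 lost a call and 8 gained one; without 1 array each, 1038 of 1140 kept both, 71 reversed, 27 lost a call and 4 gained one. Between mock cultures and control glomeruli 5 members were called with median scaling, 1 with normexp, and 1 to 4 without 1 array.

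The counts of all genes called moved more, and the cause was not tested unless given here. With only the arrays compared, which leaves fewer arrays to estimate the spread, 0 genes were called in glomeruli, 0 at day 4, 1 at day 7 and 0 between mock days. Normexp called 5, 5071, 57 and 0 genes, and 4 between glomerular and culture responses. With dim probes kept, 258 were called in glomeruli, 106 between responses and 10 between mock days, where probes well above background on all arrays gave 1. Quantile normalization called 52 genes at day 4 and 3 between mock days, and limma's trended, robust moderation 82 and 0. Without 1 array the counts were 89 to 495 in glomeruli, 7 to 78 at day 4, 9 to 238 at day 7, 0 to 1 for day 7 minus day 4 responses, 6 to 368 between responses and 0 to 7 between mock days.

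The labels do not say that the replicate numbers pair the samples, and the main fit did not pair them. Across genes, the deviations of same-numbered arrays correlated at 0.21 (glomeruli), 0.511 (day 4) and 0.538 (day 7). Same-numbered culture arrays thus deviated alike in part, for a reason that was not tested and that 2 arrays a group cannot settle. The replicate block called 90 genes at day 4, 432 at day 7, 444 between responses and 0 between mock days. A slide block was not run, since slide coincides with tissue and day and adds nothing within a slide.

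Reversals with normexp at day 4 were Atf3 at 0.51, Atf6 at 0.10, Atf4 at -0.24, Calr at -0.20, Xbp1 at -0.19, Herpud1 at -0.076, Dnajb9 at -0.0295, Hspa5 at -0.029, Canx at -0.025 and Hsp90b1 at -0.0035. Atf4 turned to -0.10 there with quantile normalization, and in glomeruli to 0.044 with median scaling and 0.0035 with quantile normalization. For the day 7 minus day 4 response normexp gave 0.29 for Calr, 0.27 for Hsp90b1, 0.25 for Hspa5 and 0.090 for Pdia4, median scaling 0.0014 for Calr and 0.017 for Hsp90b1, and quantile normalization 0.018 for Hspa5 and -0.0012 for Dnajb9. Between glomerular and culture responses Herpud1 turned to 0.029 with median scaling, 0.10 with normexp and 0.021 with quantile normalization, and Atf4 to 0.047 with the last. Between mock days Xbp1 turned to -0.046, -0.019 and -0.12 with median scaling, normexp and quantile normalization, Herpud1 to 0.028 with normexp, and Hsp90b1 to -0.0445 and Hspa5 to -0.0059 with quantile normalization. Between mock cultures and glomeruli Calr turned to 0.038 with median scaling, Dnajb9 to -0.18 with the mean of its probes and -0.031 with quantile normalization, and Hsp90b1, Hspa5 and Xbp1 to -0.21, -0.14 and -0.074 with the latter. The cause was not tested.

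Without 1 array, signs turned within these ranges. In glomeruli Atf4 spanned -0.20 to 0.19, Canx -0.28 to 0.0022 and Herpud1 -0.38 to 0.70. At day 4 Atf4 spanned -0.10 to 0.22, Atf6 -0.037 to 0.016, Ddit3 -0.35 to 0.066 and Xbp1 -0.031 to 0.25. At day 7 Atf4 spanned -0.28 to 0.51, Atf6 -0.22 to 0.12, Calr -0.15 to 0.43, Ddit3 -0.58 to 0.67, Eif2ak3 -0.032 to 0.15, Ern1 -0.11 to 0.18 and Pdia4 -0.0796 to 0.32. For day 7 minus day 4 responses Atf4 spanned -0.34 to 0.45, Calr -0.32 to 0.26, Ddit3 -0.44 to 0.82, Dnajb9 -0.057 to 0.0575, Herpud1 -0.14 to 0.17, Hsp90b1 -0.23 to 0.19, Hspa5 -0.23 to 0.16, Pdia4 -0.26 to 0.14 and Xbp1 -0.12 to 0.16. Between glomerular and culture responses Atf4 spanned -0.29 to 0.10 and Herpud1 -0.55 to 0.53. Between mock days Atf4 spanned -0.58 to 0.21, Calr -0.12 to 0.46, Ddit3 -0.52 to 0.74, Herpud1 -0.18 to 0.13, Hsp90b1 -0.12 to 0.30, Hspa5 -0.046 to 0.34, Pdia4 -0.10 to 0.30 and Xbp1 -0.12 to 0.16. A group left with 1 array is assumed to vary like the others. All members were well above background on every array.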
